A study of Mus musculus with 4 samples.

Results

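The response to bone morphogenetic protein (BMP) was examined in cultured mouse hair follicle cells through 10 genes. They were Ranbp3l, Id1, Id2, Id3, Id4, Smad6, Smad7, Smad9, Bmpr1a and Bmpr2, taken as the rows of the deposited count matrix that carry exactly these gene names. All 10 were present among 51826 genes and all 10 passed the minimum mean count of 10, as did 16734 genes in all. The genes were chosen by their names with the count values of these 4 libraries, and above all the change of Ranbp3l with passage, already in view, so their levels and changes are given as a description, with no test.

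RNA was sequenced from dermal papilla cells (DPCs), the mesenchymal cells inside the hair bulb, and from dermal sheath cells (DSCs), which wrap the follicle. Both had been grown from vibrissa (whisker) follicles of EGFP-transgenic C57BL/6J mice, whereas the labels give the genotype as WT and the medium as DMEM. Each cell type was taken at passage 3 (low passage) and at passage 9 (high passage), with 1 library for each of the 4 combinations. The labels name no added agent, the 4 groups share everything else the labels give, and the labels tie no library to a mouse or a date, so passage cannot be told apart from culture time or handling.

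In the BMP pathway, a ligand binds type I and type II receptor kinases, the type I receptor phosphorylates the receptor Smads Smad1, Smad5 and Smad8, and these enter the nucleus with Smad4 to switch on genes such as the Id family. Smad6 and Smad7 hold the signal back, and Ranbp3l, a Ran-binding protein, carries dephosphorylated BMP Smads out of the nucleus. In hair follicles, BMP signals take part in the resting state of follicle stem cells and in keeping dermal papilla cells able to induce hair.

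Total counts were lowest for DPCs at passage 9 (34981284) and highest for DSCs at passage 9 (47604059). No group had a replicate, so no difference below has a replicate check. Intervals are exact 95% intervals on the counts of 2 libraries. They cover counting error only and compare those libraries, not the conditions. Genes with 2 counts outnumbered genes with 3 in every library, 1339 against 583 in low-passage DPCs. This would happen if each mate of a pair adds 1 count, but also if fewer genes hold each higher count. The tally cannot tell these apart. Halving the counts, in case mates were counted separately, moved 1 member interval across 0 (Smad6 between the cell types at high passage). In bulk RNA, fewer cells of a type and less RNA per cell cannot be told apart.

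The cell type labels were set against marker genes. Of 12 dermal papilla markers, between 10 and 12 had a count in each library, and their summed level was 1005 CPM (counts scaled to a common library size) in DPCs at passage 3 and 760 at passage 9, against 683 and 1220 in DSCs, so the sum did not separate DPCs from DSCs. Of the 9 that were tested, 3 were at least 2-fold higher in DSCs and 3 lower at passage 3 (Alpl, Ncam1 and Hhip against Lef1, Sox2 and Crabp1), and 3 higher and 2 lower at passage 9 (Ncam1, Lef1 and Fgf7 against Sox2 and Rspo3). Sox2 had 1677 and 1491 counts in the DPC libraries and 269 and 178 in the DSC libraries, while Ncam1 had 3642 and 1673 against 11755 and 15584. These genes were named after their values were seen. The study stained NCAM, the product of Ncam1, as a marker of both DPCs and DSCs. Ncam1 is thus no marker of DPCs alone, though it is part of the papilla sum. Alpl, which encodes the alkaline phosphatase that marks the papilla, had between 6 and 23 counts. The 7 dermal sheath markers, Acta2 among them, were present in all 4 libraries. At passage 3, 0 of them were at least 2-fold higher in DSCs and 2 were lower, with a median log2 difference of -0.38. At passage 9, 6 were higher and 0 lower, with a median of 1.28. The sheath list therefore did not separate DSCs from DPCs at passage 3.

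**Figure D1:**
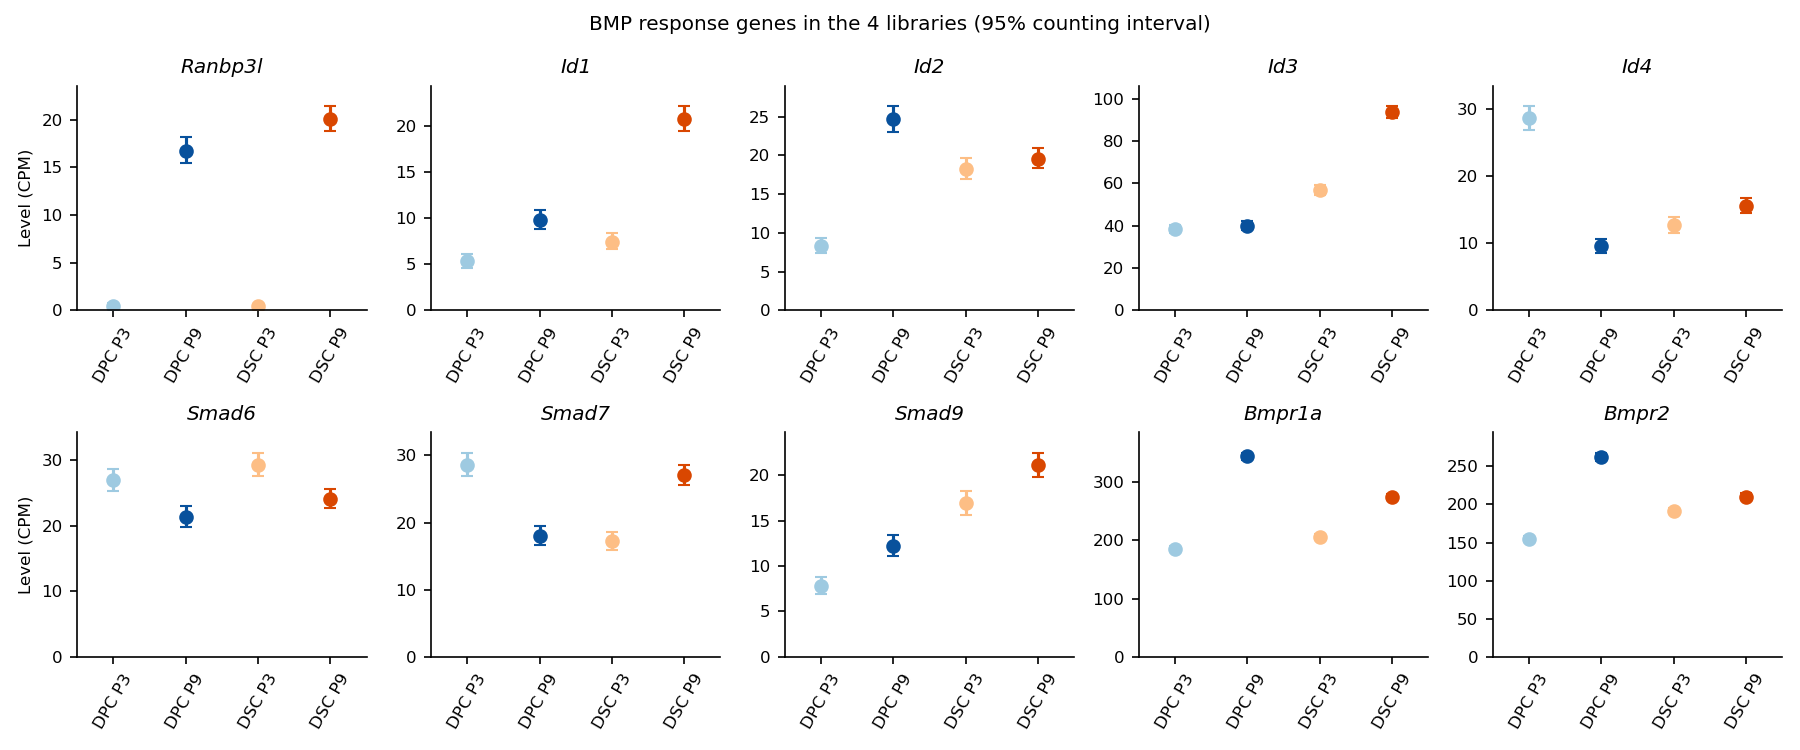
Level of each of the 10 genes in the 4 libraries, in CPM on a separate linear axis for each gene; P3 and P9 are passages 3 and 9, a point is 1 library and a bar its exact 95% counting interval. Ranbp3l sits below 1 CPM in both low-passage libraries and at 16.8 and 20.0 CPM in the high-passage libraries, while Smad6 stays between 21.4 and 29.3 CPM.

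Ranbp3l, the Smad exporter, was nearly silent at low passage and well detected at high passage in both cell types. The gene (ENSMUSG00000048424) lies on chromosome 15, 8968426 to 9066551 on the plus strand of GRCm38 in the deposited tables. It had 17 counts at low passage and 601 at high passage in DPCs, and 17 and 913 in DSCs, which is 0.462, 16.8, 0.449 and 20.0 CPM. Both high-passage libraries stood far above both low-passage libraries, and the low-passage pair had the same count. On the log2 scale the gene rose by 5.03 in DPCs (4.49 to 5.97) and by 5.33 in DSCs (4.79 to 6.27). Changes are written as passage 9 over passage 3 throughout, unless cell types are named. It ranked 68 from the top of 16734 genes in DPCs and 31 in DSCs.

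Ranbp3l was the 1 member past a 4-fold change in either cell type. Of all tested genes, 5.58% were at least 4-fold higher and 4.36% lower at high passage in DPCs, 2.67% higher and 1.16% lower in DSCs, and 1.27% higher in both. Nothing is read from the count of members, since they were picked with these changes known.

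The cell types differed little in Ranbp3l. At low passage, DSCs over DPCs came to -0.04 on the log2 scale, with an interval from -1.10 to 1.02 that the 17 counts on each side leave wide. At high passage the value was 0.26 (0.11 to 0.41). In the deposited FPKM (fragments corrected for transcript length and sequencing depth), the levels were 0.136, 5.72, 0.126 and 6.46 in the order above. The transcript length that counts and FPKM together imply was 3.53 and 3.47 kb at low passage against 3.00 and 2.97 kb at high passage in DPCs and DSCs, and what sets that difference was not tested.

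The sequence just upstream of the start is shown for Ranbp3l, the member with the largest change, for Id4, which had opposite changes in the cell types, and for Smad6, which varied least. Each is the 250 bases before the RefSeq start on the gene's own strand, 5′ to 3′, from RefSeq on GRCm38.p6. They are Ranbp3l at chr15:8967699-8967948 on the plus strand, Id4 at chr13:48260866-48261115 on the plus strand and Smad6 at chr9:64022060-64022309 on the minus strand. None of these bases lies in a GENCODE exon. Capitals mark GGCGCC, the GC-rich element that BMP Smads can bind, CAGAC on either strand, the short Smad element, or CANNTG, the E-box of basic helix-loop-helix (bHLH) proteins. Both strands were searched, and in the stretches shown no match overlaps another.
Ranbp3l: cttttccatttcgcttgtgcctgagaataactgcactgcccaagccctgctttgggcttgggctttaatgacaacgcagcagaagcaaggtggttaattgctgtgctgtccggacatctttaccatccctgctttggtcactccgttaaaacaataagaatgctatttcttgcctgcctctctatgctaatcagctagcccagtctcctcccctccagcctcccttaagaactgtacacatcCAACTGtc
Id4: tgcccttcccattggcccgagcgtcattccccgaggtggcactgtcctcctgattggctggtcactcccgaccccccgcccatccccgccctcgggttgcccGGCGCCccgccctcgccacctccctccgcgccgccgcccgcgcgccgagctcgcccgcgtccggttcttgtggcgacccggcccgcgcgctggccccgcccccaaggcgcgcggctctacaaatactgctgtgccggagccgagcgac
Smad6: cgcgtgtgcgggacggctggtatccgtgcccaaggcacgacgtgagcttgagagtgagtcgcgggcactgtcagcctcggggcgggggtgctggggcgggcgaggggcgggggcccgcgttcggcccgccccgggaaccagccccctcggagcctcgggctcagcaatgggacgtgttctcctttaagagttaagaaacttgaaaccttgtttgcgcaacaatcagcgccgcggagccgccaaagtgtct
The E-box of Ranbp3l begins 8 bases before the start and the GGCGCC of Id4 begins 148 bases before it, while the Smad6 stretch holds none of these letters. RefSeq stretches were found for 8 of the 10 genes, without Id1 and Smad7. GENCODE exons cover 161 of the 250 bases for Id2, 141 for Bmpr1a and all 250 for Id3 and for Bmpr2. Those stretches are therefore not wholly upstream of annotated transcripts. GGCGCC was in 5 of the 8 (Id2, Id4, Smad9, Bmpr1a and Bmpr2) and in 9.59% of 32851 promoter stretches of the same length. CAGAC was in 1 (Id3) against 42.2%, CANNTG in 3 (Ranbp3l, Id2 and Smad9) against 66.2%, and TATAAA, the TATA box, in 0 against 12.4%. The G+C content was 48.8% for Ranbp3l and between 62.8% and 78.8% for the other 7, against a median of 52.4%, so GC-rich words are more likely in those 7. These are matches of letters, and binding was not measured here.

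The Id genes encode helix-loop-helix proteins that lack a DNA-binding region and tie up bHLH partners. They did not move as a block. Id1 and Id3 were at their highest in high-passage DSCs, Id2 in high-passage DPCs and Id4 in low-passage DPCs.

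Id1 (ENSMUSG00000042745, chromosome 2, 152736251 to 152737410, plus strand), the Id gene most often used as a readout of BMP signaling, had 196, 354, 284 and 948 counts in the 4 libraries, DPCs before DSCs and low before high passage. These are 5.33, 9.87, 7.49 and 20.8 CPM. Both high-passage libraries were above both low-passage libraries. Passage 9 over passage 3 came to 0.88 in DPCs on the log2 scale (0.63 to 1.15) and 1.47 in DSCs (1.28 to 1.67). DSCs were above DPCs by 0.49 at low passage and by 1.07 (0.90 to 1.26) at high passage.

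Id2 (ENSMUSG00000020644, chromosome 12, 25093799 to 25097140, minus strand) had 305 counts in low-passage DPCs and 883 in high-passage DPCs, against 691 and 891 in DSCs, or 8.29, 24.6, 18.2 and 19.6 CPM. Low-passage DPCs stood below the other 3 libraries. The log2 change was 1.56 in DPCs (1.38 to 1.76), whereas in DSCs it was 0.10 with an interval that included 0 (-0.04 to 0.25). The sign of the cell type difference therefore turned with passage, from 1.13 higher in DSCs at low passage to -0.33 at high passage.

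Id3 (ENSMUSG00000007872, chromosome 4, 136143497 to 136145755, plus strand) had 1413, 1432, 2159 and 4257 counts, or 38.4, 39.9, 57.0 and 93.5 CPM in the same order. The DPC libraries were nearly level and both DSC libraries lay above them. The log2 change was 0.06 in DPCs (-0.05 to 0.16) and 0.71 in DSCs (0.64 to 0.79). DSCs exceeded DPCs by 0.57 at low passage and 1.23 (1.14 to 1.31) at high passage.

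Id4 (ENSMUSG00000021379, chromosome 13, 48261427 to 48264036, plus strand) was lower at high passage in DPCs, where Id1 and Id2 were higher. It had 1052 counts in low-passage DPCs and 343 in high-passage DPCs, and 480 and 710 in DSCs, or 28.6, 9.56, 12.7 and 15.6 CPM. Low-passage DPCs stood above the other 3 libraries. The log2 change was -1.58 in DPCs (-1.76 to -1.40) and 0.30 in DSCs (0.13 to 0.47). DSCs were at -1.17 relative to DPCs at low passage and at 0.70 at high passage. Exons of A330033J07Rik and Gm49291 overlap Id4 on the other strand, and with the use of strand in counting not stated, their reads cannot be told apart.

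Per unit of transcript length, Id3 was the most abundant Id gene in every library, at 28.5, 31.1, 39.8 and 64.6 FPKM. Its share of the summed Id FPKM was 51.2% and 48.7% in low- and high-passage DPCs and 60.4% and 61.9% in DSCs. Id4 held 28.5% of the sum in low-passage DPCs and 8.23% in high-passage DPCs, while the share of Id2 went from 11.0% to 28.1%. The share of Id1 in DPCs was 9.34% at low passage and 14.9% at high passage. In DPCs Id4 was thus the second most abundant Id gene at low passage and the least abundant at high passage. In DSCs, the share of Id4 was 10.0% and 7.63%, that of Id2 19.1% and 12.6%, and that of Id1 10.5% and 17.9%. The summed Id FPKM was 55.6 and 63.9 in DPCs and 65.9 and 104 in DSCs.

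**Figure D2:**
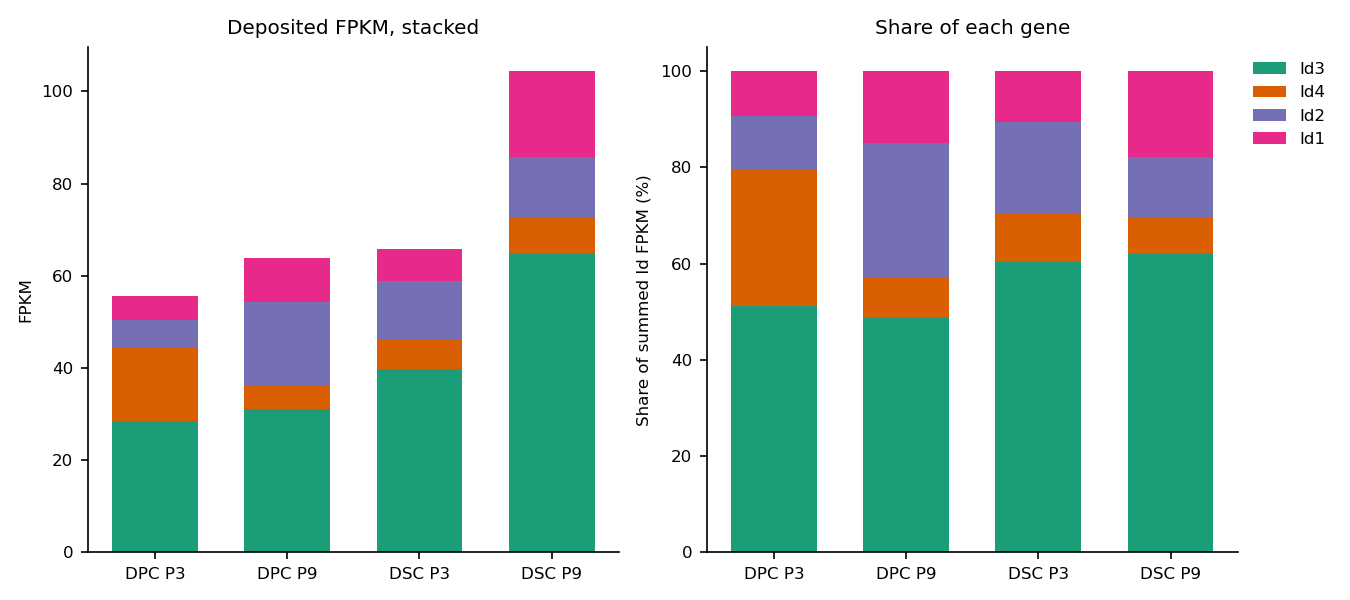
Deposited FPKM of Id1 to Id4 stacked for each library (left) and the same values as a share of their sum in percent (right), with P3 and P9 for passages 3 and 9 and 1 library per bar. Id3 fills the largest part of every bar, and the Id4 part shrinks from 28.5% to 8.23% in DPCs while the Id2 part grows from 11.0% to 28.1%.

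Smad6 and Smad7 are the inhibitory Smads, which bind activated type I receptors and are themselves induced by the signal they limit. Smad6 (ENSMUSG00000036867, chromosome 9, 63953076 to 64022059, minus strand) had 991, 766, 1111 and 1097 counts in low- and high-passage DPCs and low- and high-passage DSCs, or 26.9, 21.4, 29.3 and 24.1 CPM. It was slightly lower at high passage in both cell types. On the log2 scale the change was -0.33 in DPCs (-0.47 to -0.20) and -0.28 in DSCs (-0.41 to -0.16). Across the 4 libraries its highest FPKM was 1.27 times its lowest, the narrowest range of the 10 genes. The changes in DSCs and DPCs differed by 0.05, and 94.1% of tested genes had a larger difference between the cell types.

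Smad7 (ENSMUSG00000025880, chromosome 18, 75367529 to 75395935, plus strand) had 1051 counts in low-passage DPCs and 645 in high-passage DPCs, and 653 and 1231 in DSCs, or 28.6, 18.0, 17.2 and 27.0 CPM. The high level was thus found in low-passage DPCs and in high-passage DSCs. The log2 change was -0.67 in DPCs (-0.81 to -0.53) and 0.65 in DSCs (0.51 to 0.79). DSCs over DPCs came to -0.73 at low passage and 0.59 at high passage.

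Id4 and Smad7 were the 2 members whose counting intervals lay on opposite sides of 0 in DPCs and DSCs. Of all tested genes, 11.6% did so, and with 1 library a group the difference between the cell types was not tested. The change in DSCs exceeded that in DPCs by 1.87 for Id4 and 1.31 for Smad7, and 8.54% and 15.9% of tested genes had a larger absolute difference. For Id2 the difference was -1.46, with 13.4% of genes beyond it.

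**Figure D3:**
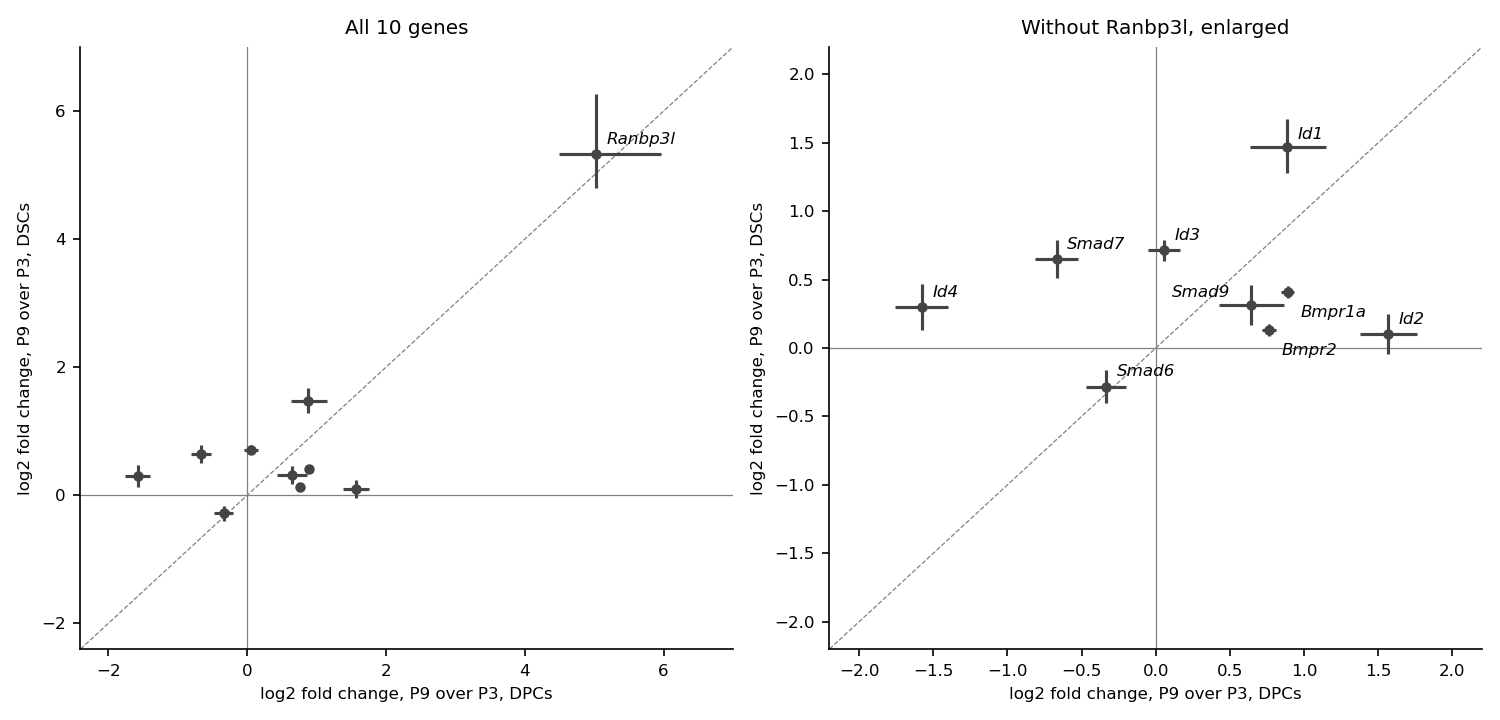
Change with passage in DPCs (horizontal axis) against DSCs (vertical axis), as log2 fold change of passage 9 (P9) over passage 3 (P3), for all 10 genes (left) and without Ranbp3l (right); bars are 95% counting intervals and the dashed line marks equal change. Ranbp3l lies at 5.03 and 5.33, Smad6 on the line, and Id4 and Smad7 in the upper left, with negative values in DPCs and positive values in DSCs.

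Smad9 encodes Smad8, a receptor Smad that is also a target of BMP signaling. The gene (ENSMUSG00000027796, chromosome 3, 54755582 to 54801257, plus strand) had 287, 438, 641 and 959 counts, or 7.80, 12.2, 16.9 and 21.1 CPM in the same order of libraries. Both DSC libraries were above both DPC libraries. Passage 9 over passage 3 came to 0.64 in DPCs on the log2 scale (0.43 to 0.87) and 0.32 in DSCs (0.17 to 0.46), and the cell type difference was 1.11 (0.91 to 1.32) at low passage and 0.78 (0.62 to 0.95) at high passage.

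The other receptor Smads gave smaller values. The change of Smad1 was 0.19 for DPCs and 0.25 for DSCs, and that of Smad5 -0.24 and -0.28. For Smad4, the partner that all receptor Smads share, the values were -0.14 and -0.28. None of the 5 other Smads measured (Smad1 to Smad5) passed 4-fold or 2-fold in either cell type, and the changes of Smad2 (-0.28 and -0.38) and Smad3 (0.27 and 0.28), which serve TGF-beta and activin, were of the same size.

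Bmpr1a, a type I receptor, and Bmpr2, the type II receptor that is selective for BMPs, were the most abundant members by counts. Bmpr1a (ENSMUSG00000021796, chromosome 14, 34410734 to 34503341, minus strand) had 6823, 12323, 7809 and 12462 counts, or 186, 344, 206 and 274 CPM. Bmpr2 (ENSMUSG00000067336, chromosome 1, 59763400 to 59879014, plus strand) had 5671, 9400, 7250 and 9567 counts, or 154, 262, 191 and 210 CPM. In both genes low-passage DPCs were lowest, then low-passage DSCs, then high-passage DSCs, and high-passage DPCs were highest. The log2 change of Bmpr1a was 0.89 in DPCs (0.85 to 0.93) and 0.41 in DSCs (0.37 to 0.45). For Bmpr2 it was 0.77 (0.72 to 0.81) and 0.13 (0.09 to 0.18). DSCs over DPCs turned from 0.15 to -0.33 for Bmpr1a and from 0.31 to -0.32 for Bmpr2 between low and high passage. Exons of Gm17110 overlap Bmpr1a on the other strand.

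The remaining receptors varied in direction. Among 5 other BMP receptors, 0 passed 4-fold in either cell type, where the median change was 0.33 for DPCs and -0.55 for DSCs. The type I receptor Acvrl1 stood at -1.23 for DPCs and -0.96 for DSCs, the type I receptor Acvr1 at 0.33 and 0.39, and the type I receptor Bmpr1b at 1.12 and 0.92. The type II receptor genes Acvr2a and Acvr2b had 1970, 962, 1369 and 969 counts and 21, 64, 24 and 19 counts. Of the co-receptors, 5 of 6 were found by symbol (not Hjv), and their median was 1.52 in DPCs and 0.45 in DSCs. Rgma, a membrane-anchored co-receptor of the repulsive guidance family, was the 1 past 4-fold, at 2.04 in DPCs with 552 and 2225 counts, and it was at -0.12 in DSCs.

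On the FPKM scale, which allows levels of different genes to be compared, the order by mean over the 4 libraries was Id3 (41.0), Bmpr1a (39.5), Bmpr2 (14.1), Id2 (12.4), Id1 (10.1), Id4 (8.92), Smad6 (7.74), Smad7 (4.95), Ranbp3l (3.11) and Smad9 (2.37). The order was not the same in each library. Bmpr1a was above Id3 in both DPC libraries (30.2 against 28.5 and 55.1 against 31.1 FPKM), and Ranbp3l was above Smad7 in both high-passage libraries (5.72 against 3.97 and 6.46 against 5.85). With 1 library a group, no spread over replicates says which neighbours in this order differ. Id3 was above 90.4% of tested genes and Smad9 above 35.4%. The ratio of the highest to the lowest FPKM was 51.1 for Ranbp3l and lay between 1.27 and 3.59 for the other 9.

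Over the 10 genes, the median change with passage was 0.70 in DPCs and 0.36 in DSCs, against 0.03 and 0.00 over all tested genes. In DPCs, 2 members were at least 2-fold higher (Ranbp3l and Id2, against 16.1% of tested genes) and 1 was lower (Id4, against 15%). In DSCs, 2 were higher (Ranbp3l and Id1, against 8.55%) and 0 lower (6.21%). Counting intervals lay above 0 for 6 members in DPCs (39.8% of tested genes) and 8 in DSCs (33.9%), and below 0 for 3 (37.8%) and 1 (32.9%). With these depths counting error is small, so an interval that leaves out 0 is common.

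Between the cell types, 0 members passed 4-fold at low passage (4.3% of tested genes) or at high passage (6.42%). A difference of 2-fold or more was found for Id2, Smad9 and Id4 at low passage (13.3% of tested genes) and for Id1 and Id3 at high passage (20.1%). The 4 comparisons share libraries, so they are not independent of each other.

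**Figure D4:**
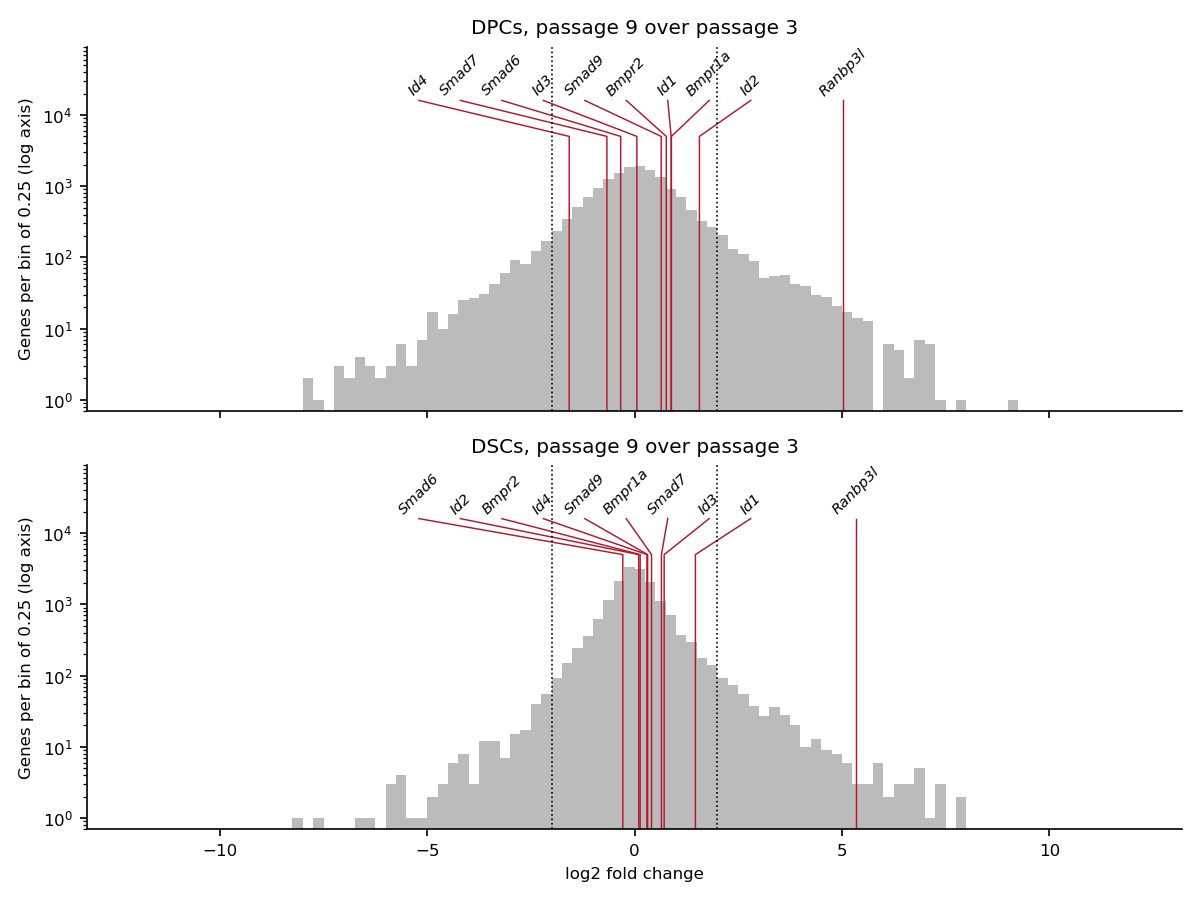
Number of tested genes by log2 fold change of passage 9 over passage 3 in bins of 0.25, on a log axis, for DPCs (top) and DSCs (bottom), with red lines at the 10 genes and dotted lines at 4-fold. Ranbp3l lies in the far right tail of both panels, at 5.03 and 5.33, and the other 9 lie between the dotted lines.

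The rest of the pathway was read from lists of ligands, antagonists, factors that shut Smads off, further target genes and bHLH partners of Id proteins. The ligand list held 13 genes, of which 9 were tested, and their median change was 0.27 for DPCs and 0.97 for DSCs. It includes Bmp1, which despite its name encodes a procollagen protease, and without it the medians of the other 8 were 0.36 and 1.23. Bmp4, a main BMP of the follicle mesenchyme, fell in DPCs, from 2104 to 137 counts (-3.89), and had 5931 and 5724 counts in DSCs (-0.32). Bmp3, which opposes other BMPs, rose in DPCs from 146 to 1432 counts (3.31) and had 41 and 27 counts in DSCs. In DSCs the ligands Bmp2, Bmp7 and Gdf7 passed 4-fold, from 24 to 140, from 0 to 51 and from 13 to 176 counts, which makes Bmp7 at least 14.1-fold higher. Bmp7 also had more counts at high passage in DPCs, 9 and 38 (1.91, 1.04 to 3.35), without passing 4-fold. Whether the cell types differ in their ligand genes was not tested.

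Of 16 antagonists, 14 were tested, with a median of -0.17 in DPCs and 0.41 in DSCs (0.34 with genes at 0 set to their bound). Nog, which encodes noggin, a secreted protein that captures BMPs, rose in DPCs from 10 to 46 counts (2.05). Sostdc1, another secreted BMP and Wnt antagonist, fell there from 61 to 0 counts, at least 19.8-fold lower. Fst (follistatin) and Fstl1 did not pass 4-fold, at -1.90 and -1.35 in DPCs and 0.44 and -0.15 in DSCs. In DSCs 0 of the 14 passed 4-fold.

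The 14 factors that shut Smads off, which include Ranbp3, the phosphatase Ppm1a and the ubiquitin ligases Smurf1 and Smurf2, gave medians of -0.29 for DPCs and -0.14 for DSCs, and 0 passed 4-fold. The values in DPCs and DSCs were -1.88 and -0.45 for Ski, a co-repressor of Smad complexes, -1.69 and -0.92 for the phosphatase gene Ctdspl, and -0.76 and -0.22 for Smurf1. In both cell types the change of Ranbp3l was larger than that of any of these 14 genes and of the other 9 members. Nothing is read from this rank, since Ranbp3l was picked with its change known.

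The 12 tested genes of 14 other BMP targets gave medians of -0.01 for DPCs and -0.05 for DSCs. Atoh8, a bHLH target, rose in DPCs from 126 to 507 counts (2.03) and had 656 and 818 in DSCs. Hey1, a Notch and BMP target, fell in DPCs from 85 to 6 counts (-3.43) and had 72 and 44 in DSCs. Dlx5, a homeobox gene of bone-forming cells, had 8 and 8 counts in DPCs and rose in DSCs from 13 to 182 (3.36). Sp7, the osterix gene, had 3 and 8 counts in DPCs and fell in DSCs from 38 to 9 (-2.08). Each of these was called in 1 cell type.

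Of 9 bHLH and Ets partners of Id proteins, 0 passed 4-fold in either cell type, with medians of 0.07 in DPCs and -0.05 in DSCs. Hes1 stood at -1.91 for DPCs and -0.36 for DSCs, and Tcf4, an E protein gene, at 1.83 and 0.56. Twist2 was at -0.99 and -0.04 and Ets1 at -0.90 and -0.99.

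**Figure D5:**
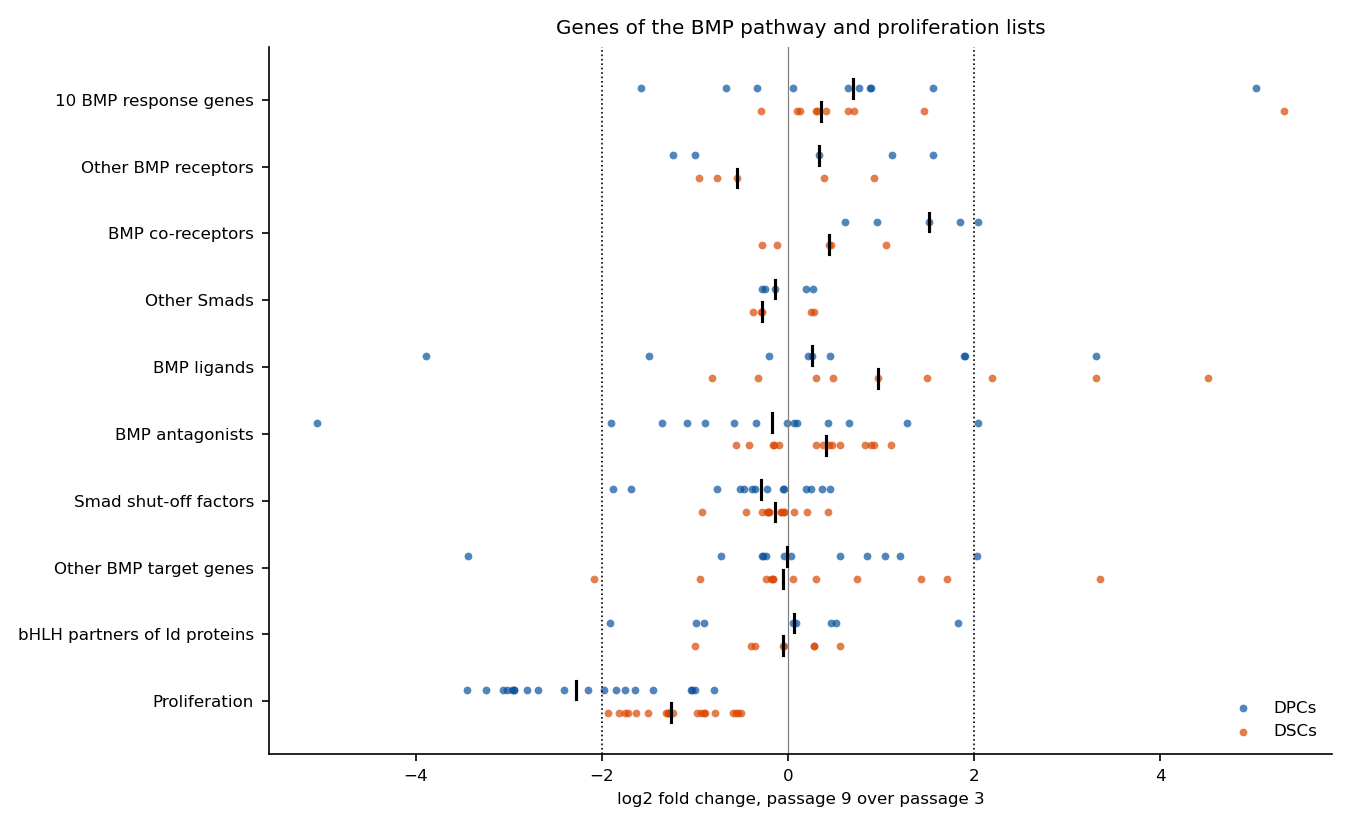
Log2 fold change of passage 9 over passage 3 for each tested gene of the 10 BMP response genes, the other pathway lists and the proliferation list, with DPCs in blue, DSCs in orange, black bars at list medians and dotted lines at 4-fold; a gene at 0 counts is drawn at its fitted value. The proliferation list is the 1 list in which all values are negative in both cell types, with medians of -2.28 and -1.25.

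Proliferation moved with the same contrast. Of 20 proliferation genes, 11 fell at least 4-fold in DPCs and 0 in DSCs, with medians of -2.28 and -1.25. Their summed level was 1350 and 364 CPM in low- and high-passage DPCs and 1133 and 524 CPM in DSCs. Their part in the values of Ranbp3l and the Id genes was not tested.

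The summed levels of markers of other cell types differed widely between lists. The 8 Schwann cell markers summed to 13.3, 3.65, 32.5 and 5.29 CPM in low- and high-passage DPCs and low- and high-passage DSCs, with Sox10, Ngfr, Cdh19 and Foxd3 at 0 in both high-passage libraries. The 6 endothelial markers summed to between 0.112 and 5.70 CPM, and the 10 keratinocyte markers to 2.34, 6.44, 4.12 and 52.7 CPM with Krt5, Krt14, Krt1, Krt15 and Cdh1 at 0 in all 4 libraries. In high-passage DSCs that sum was mostly Dsp, with 2307 counts. The 6 melanocyte markers summed to between 11.2 and 28.3 CPM with Dct, Tyrp1, Tyr and Mlana at 0 throughout. The 7 immune markers summed to between 84.7 and 171 CPM with the T cell gene Cd3e at 0, the 6 skeletal muscle markers to between 0.418 and 48.5 CPM with Myod1, Ckm and Pax7 at 0, and the 5 pericyte markers to between 89.0 and 413 CPM with Kcnj8 and Abcc9 at 0. The 7 fibroblast markers summed to 17312, 6402, 25422 and 22794 CPM, and the 7 dermal sheath markers to 10124, 3762, 8310 and 7498 CPM. The part of these lists in the values of the 10 genes was not tested.

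Genes with a profile most like a member were sought by the Euclidean distance between log2 CPM over the 4 libraries, each centred on its own mean. Nearest to Ranbp3l was Hp, which encodes haptoglobin, at a distance of 0.304 and with 5, 162, 4 and 297 counts. The next 4 were Slc4a10, Hal, Vmn2r1 and Tbx20, and each of these 4 had 0 counts in both low-passage libraries. Nearest to Id1 was Zbtb20, a zinc finger repressor, at 0.174, with 3399, 5921, 5554 and 17533 counts, followed by Sntg1, Icam5, Btbd11 and Fth1. Nearest to Smad6 were Gm8566, Ap1m1, Cbfb, Gpbp1l1 and Eif4g1. Among the members, Bmpr1a and Bmpr2 were the closest pair (0.229), then Id3 and Smad9 (0.504), Id2 and Bmpr2 (0.695) and Id4 and Smad7 (0.708). A profile of 4 values is matched by many genes.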

How the data were processed

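RNA was measured in 4 libraries, DPCs and DSCs at passages 3 and 9. The authors deposited 1 table of raw counts per Ensembl gene, with no normalization, and 1 table per library of FPKM, which the authors scaled for transcript length and depth. The labels name a TruSeq kit and the study's methods a NEBNext Ultra kit with poly-T selection and paired-end reads. The submitters' processing notes list Bowtie 0.12.2 and the builds mm8 and mm9, while 94.1% of the 51633 gene IDs found in GENCODE M21 had the same position on GRCm38. The counting program and strand are not given in the sources used here.

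Genes whose raw counts averaged 10 or more were kept and scaled by TMM factors (edgeR 4.0.16, R 4.3.3). Changes are differences of log2 CPM computed from the deposited counts with a prior count of 2, and a change of 4-fold or more was called. Total counts ran from 34981284 to 47604059, which sets a floor of 3 counts between 0.0659 and 0.0837 CPM. Intervals are exact Clopper-Pearson intervals of a library's share of the counts of 2 libraries. The scripts were tested on simulated data.

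All 10 members are named in full. From each pathway list, up to 4 genes with the largest change with passage are given with values, plus receptors and Smads that a sentence needs. Bmp1 and Bmp2 are named beyond this rule. For Ranbp3l, Id1 and Smad6 the 5 genes of nearest profile are named. Levels of marker genes are named where they define a list. Dsp and the named papilla markers were chosen after their values were seen. The members and lists were chosen with earlier results of these data known. Alternatives were other scaling (total counts, DESeq2 1.42.0 size factors, upper-quartile factors), other prior counts, other filters, the deposited FPKM and a 2-fold rule. TMM factors over all genes and the ligand median without Bmp1 were added after seeing the data.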

Additional observations from a re-analysis of the deposited data

Results flagged for a closer look

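Id4 and Smad7 changed in opposite directions in the cell types. Id4 was at -1.58 in DPCs and at 0.30 in DSCs, and Smad7 was at -0.67 in DPCs and at 0.65 in DSCs, on the log2 scale of passage 9 over passage 3. Each cell type gave 1 pair of libraries, so the difference between the cell types was not tested.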

How the results depend on the processing

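No paired analysis was possible because each group held 1 library and the labels give no replicate numbers. For the same reason no replicate could be left out. Of 320 recomputed changes of the 10 genes, 30 lay outside the counting interval and 0 changed sign. The largest shift was 2.60, for Ranbp3l with a pseudocount of 1 on the FPKM, where the change was 2.57 in DPCs and 2.73 in DSCs and still past 4-fold. Id4 and Smad7 kept opposite intervals with halved counts and with each of the 4 other scalings. Prior counts do not enter the intervals, so for 0.5 and 10 only the signs of their log2 changes were compared, and these stayed opposite. The number of members past 4-fold was the same under each alternative other than the 2-fold rule, which gave 3 in DPCs, 2 in DSCs, 3 between cell types at passage 3 and 2 at passage 9. The other filters could not change it, since all 10 members had a mean count of at least 100. The number of all genes called moved more. In DPCs (1663 genes) it was 2623 without a filter, 755 at a mean count of at least 100, 354 with FPKM plus 1 and 5210 at 2-fold. In DSCs (640 genes) it was 339 with a prior count of 10, 1200 without a filter, 207 at a mean count of at least 100, 350 with FPKM plus 0.1, 72 with FPKM plus 1 and 2470 at 2-fold. Between cell types at passage 3 (719 genes) these values were 400, 1323, 301, 392, 96 and 2225. At passage 9 (1074 genes) they were 712 with a prior count of 10, 1758 without a filter, 466 at a mean count of at least 100, 211 with FPKM plus 1 and 3359 at 2-fold. FPKM plus 1 also moved the numbers of genes higher and lower in DSCs than in DPCs, from 464 and 255 to 51 and 45 at passage 3 and from 655 and 419 to 105 and 106 at passage 9. For passage 9 over passage 3 these numbers went from 933 and 730 to 177 and 177 in DPCs and from 446 and 194 to 53 and 19 in DSCs. For DSCs over DPCs, FPKM plus 0.1 moved the median of all genes by -0.08 at passage 3 and by -0.10 at passage 9. Total counts moved it by -0.09 and by -0.10. The cause of these shifts was not tested. The low-passage values of Ranbp3l rest on 17 counts each, and its interval is the widest of the 10 genes in both cell types.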
